A study of Homo sapiens with 8 samples.

Results

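The control libraries of NOMO-1 were set against the control libraries of MOLM-13, 2 human acute myeloid leukaemia cell lines, to describe how their lineage, surface and signalling genes differ. The study sequenced polyadenylated RNA from both lines after lentiviral delivery of a short hairpin, in 8 libraries, 2 for each line and hairpin. Control cells received the virus labelled shNS and were selected with puromycin, for 4 days by the design text; the sample protocol gives another duration, and also names another target gene and drugs that no sample is labelled with. The growth protocol names only NOMO-1, also for the MOLM-13 samples, so the line of each library rests on its title and cell line label. The other 4 libraries carried shALKBH5, a hairpin against the RNA demethylase ALKBH5, and entered only the last comparison. No sample is labelled with a further allele or agent. A gene was taken where it had at least 1 TPM (a transcript's share of its library after division by length, scaled to a fixed total) in at least 2 of the 4 control libraries. That left 13366 of the 26830 genes of the deposited table. At the edge of that filter, 116 genes had a second highest value from 1 to 1.1 TPM and 159 lay from 0.9 to just under 1 TPM.

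Both lines came from acute leukaemia of the monocytic kind and carry a fusion of KMT2A (MLL) with MLLT3, a transcription elongation cofactor, which keeps HOXA cluster genes and MEIS1 active. MOLM-13 is known for an internal tandem duplication in the receptor kinase FLT3. Myeloid blasts hold the granule enzymes, surface receptors and transcription factors of the stage at which they stopped maturing, so these genes serve as a record of lineage. All of this is background and was not measured here.

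The labelled cell type was checked against marker genes first. Of 16 markers of monocytic leukaemia, 14 reached 1 TPM in both NOMO-1 libraries and 15 in both MOLM-13 libraries. CD14 and MPO fell short of it in NOMO-1. The 16 markers summed to 1897 and 1954 TPM in NOMO-1 against 13558 and 13090 TPM in MOLM-13. LYZ alone gave 9126 and 8493 TPM of the MOLM-13 sums. Of 9 markers of T, B and NK cells, each control library listed 3 at 0, but not the same ones. MS4A1 alone was at 0 in every control library. The 9 markers summed to 388 and 379 TPM in NOMO-1 against 67.3 and 69.8 TPM in MOLM-13. NKG7, a granule membrane gene of cytotoxic cells, gave 377 and 368 TPM of the NOMO-1 sums. In any control library, 7 erythroid and megakaryocyte markers summed to at most 3.4 TPM and 6 epithelial and stromal markers to at most 1.4 TPM. Most members of longer lists of these kinds did not reach the filter either, but some did. Among them were GYPC at 197 and 195 TPM in NOMO-1 and ACTA2 at 22.8 and 22.1 TPM in MOLM-13. TPM keeps no sequencing depth, so none can be given.

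The 2 libraries of a line lay close together. Over genes with a mean of 10 TPM or more, the log2 difference between the 2 libraries had an SD of 0.12 in NOMO-1 and 0.16 in MOLM-13. The labels do not state whether a pair of libraries was 2 cultures or 1, so a p-value here reflects library spread, which may be technical. Ribosomal protein genes took 14.5% and 15% of all TPM in NOMO-1 against 29.1% and 29.5% in MOLM-13. Since TPM is a share, every value below is relative to that composition. In such bulk libraries, fewer cells with a transcript and less of it per cell cannot be told apart. The median log2 difference of all genes tested, NOMO-1 minus MOLM-13, was 0.3 (quartiles -0.33 and 0.92), and list medians below stand beside it.

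By limma on log2(TPM + 1), 11140 genes (83.3%) differed between the lines at an adjusted p under 0.05. A gene was called where it also differed by at least 2-fold. Of all genes tested, 4589 (34.3%) were called, 3036 (22.7%) higher in NOMO-1 and 1553 (11.6%) higher in MOLM-13. These percentages are the background for each list below. The split moved with the scale: under median-of-ratios scaling, which set the median difference to 0.02, 2169 genes were called higher in NOMO-1 and 2047 higher in MOLM-13, so that NOMO-1 held 51.4% of the calls instead of 66.2%. Called on both scales in the same direction were 3722 genes. The genes tested included 1082 at 1 TPM or more in both NOMO-1 libraries and in neither MOLM-13 library, and 829 with the reverse. Such genes, also found within the lists, passed the filter through 1 line alone. Both libraries of 1 line lay above both of the other for 91.4% of all genes tested, so a gap between the groups alone is common in these data. The plot of levels in the control libraries shows that the genes furthest from the diagonal were close to 0 in 1 line.

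**Figure D1:**
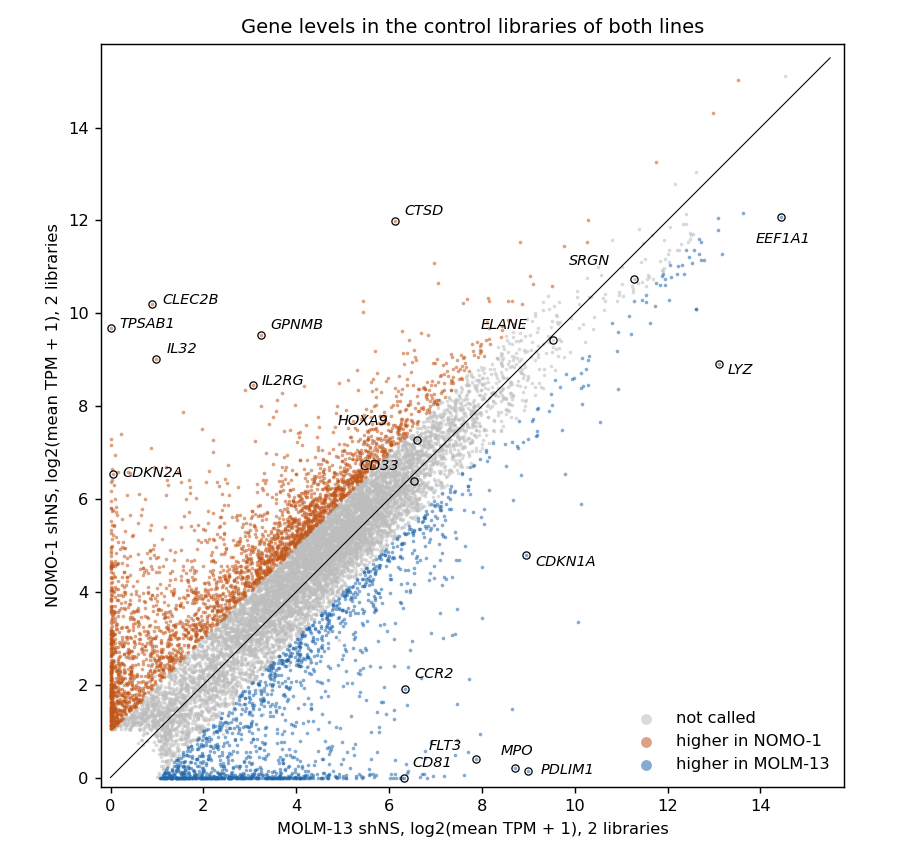
Mean level of each gene tested in the 2 MOLM-13 shNS libraries (x axis) and the 2 NOMO-1 shNS libraries (y axis), as log2(mean TPM + 1). Each point is a gene, coloured by its call; the line marks equal levels. TPSAB1, CLEC2B and IL32 lie near the y axis, MPO, FLT3, PDLIM1 and CD81 near the x axis, and CD33 and ELANE near the line.

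Some genes were present in 1 line and close to absent from the other. A mean of at least 10 TPM in NOMO-1 with under 0.1 TPM in both MOLM-13 libraries was found for 81 genes, and the reverse for 120 genes. The sequences upstream of 5 genes at or near these patterns, each under 0.5 TPM in both libraries of the low line, are printed here as examples chosen after their values were seen. Each run holds the 250 bases before 1 start site per gene in RefSeq (build GRCh38.p14), 5′ to 3′ on the gene's strand. Any other start site of a gene was not considered, and the CDKN2A window lies just beyond the gene's outer end at 21995301. Capitals mark each CpG, the dinucleotide at which human DNA is methylated. Of the genes high in NOMO-1, CDKN2A lies at chr9:21995325-21995574 (minus strand) and GTSF1 at chr12:54473603-54473852 (minus strand).
CDKN2A: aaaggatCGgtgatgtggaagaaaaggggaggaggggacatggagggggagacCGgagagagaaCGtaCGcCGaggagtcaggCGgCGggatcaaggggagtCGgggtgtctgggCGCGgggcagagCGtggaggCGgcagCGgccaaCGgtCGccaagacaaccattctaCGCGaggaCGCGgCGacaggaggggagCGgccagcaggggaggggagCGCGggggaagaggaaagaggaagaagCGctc
GTSF1: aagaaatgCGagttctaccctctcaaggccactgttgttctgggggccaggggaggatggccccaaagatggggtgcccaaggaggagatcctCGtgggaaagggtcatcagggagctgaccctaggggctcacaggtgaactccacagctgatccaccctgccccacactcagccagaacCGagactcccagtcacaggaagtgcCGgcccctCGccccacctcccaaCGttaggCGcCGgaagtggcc
Of the genes high in MOLM-13, FLT3 lies at chr13:28100577-28100826 (minus strand), YBX3 at chr12:10723324-10723573 (minus strand) and APP at chr21:26171129-26171378 (minus strand).
FLT3: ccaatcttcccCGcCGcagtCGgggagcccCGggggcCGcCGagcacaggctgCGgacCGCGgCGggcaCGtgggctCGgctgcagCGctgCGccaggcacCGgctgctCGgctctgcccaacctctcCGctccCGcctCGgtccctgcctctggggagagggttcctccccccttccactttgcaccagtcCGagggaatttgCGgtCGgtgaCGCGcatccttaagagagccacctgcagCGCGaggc
YBX3: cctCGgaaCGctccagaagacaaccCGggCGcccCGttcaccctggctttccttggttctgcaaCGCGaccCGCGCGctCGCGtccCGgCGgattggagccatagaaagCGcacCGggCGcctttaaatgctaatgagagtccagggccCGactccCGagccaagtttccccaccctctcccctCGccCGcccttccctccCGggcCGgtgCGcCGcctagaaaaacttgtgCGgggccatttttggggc
APP: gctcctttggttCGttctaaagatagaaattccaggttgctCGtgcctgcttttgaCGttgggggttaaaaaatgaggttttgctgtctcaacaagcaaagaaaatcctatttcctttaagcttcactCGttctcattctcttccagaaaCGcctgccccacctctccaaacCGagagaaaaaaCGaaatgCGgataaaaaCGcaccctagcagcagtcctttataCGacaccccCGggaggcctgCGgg

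The window held 24 CpG in CDKN2A, 8 in GTSF1, 26 in FLT3, 26 in YBX3 and 12 in APP. A RefSeq promoter was matched for 10187 of the genes tested, and their median was 21 CpG. At least 15 CpG, counted on the strand shown and equal on the other, stood in 72.3% of these windows and in 42.7% of all 27305 windows of the RefSeq table. The share was 59% for the 61 matched genes of the NOMO-1 pattern above and 64.2% for the 81 matched genes of the MOLM-13 pattern. Among all called genes it was 70.8% for those higher in NOMO-1 and 58.4% for those higher in MOLM-13. These shares are descriptions of sequence, with no test, and DNA methylation was not analysed here.

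The genes highest in NOMO-1 relative to MOLM-13 included a mast cell tryptase, a lectin and a matrix protease. TPSAB1, a tryptase of mast cell granules (chromosome 16, 1240696 to 1242554), was at 812 and 824 TPM in NOMO-1 and listed at 0 in both MOLM-13 libraries. Its near copy TPSB2 was at 1.82 and 3 TPM in NOMO-1, and the split of reads between the copies is uncertain. CLEC2B, a lectin that activates NK cells, stood at 1158 and 1206 TPM against 0.8 and 0.89 TPM, a log2 difference of 9.33 (SE 0.04, adjusted p = 1.1e-06, limma). IL32, a cytokine of immune cells, had 513 and 523 TPM against 1.11 and 0.84 TPM, a 531-fold ratio of group means. MMP1, a collagenase, was at 140 and 145 TPM and listed at 0 in both MOLM-13 libraries. GTSF1, a gametocyte gene of the piRNA pathway, had 172 and 164 TPM against 0.23 and 0.11 TPM, and ITGA6, the laminin receptor chain, 233 and 235 TPM against 2.1 and 1.77 TPM. GPNMB, a glycoprotein of lysosomes and melanosomes, was at 735 and 748 TPM against 9.16 and 7.78 TPM. Apart from TPSB2, these genes were picked by a rule that asked for no overlap between the libraries of the lines. Of 7 mast cell and basophil genes past the filter, 3 were called higher in NOMO-1, TPSAB1, TPSB2 and CTSG, and none in MOLM-13. Both tryptases passed the filter through NOMO-1 alone. KIT (0.33 and 0.28 against 1.54 and 1.21 TPM) and GATA2 (0.55 and 0.86 against 1.9 and 2.63 TPM) lay lower in NOMO-1. CCR3 and SLC18A2 lay higher there, and none of these was called. The mast cell genes CPA3 and HDC did not exceed 0.07 TPM in any control library. Of 7 T, B and NK cell genes past the filter, 6 were higher in NOMO-1 and none in MOLM-13.

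The genes furthest towards MOLM-13 held an azurophil enzyme and a growth factor receptor. PDLIM1, a cytoskeletal adaptor, was at 0.15 and 0.07 TPM in NOMO-1 against 513 and 504 TPM in MOLM-13. MPO, the myeloperoxidase of azurophil granules (chromosome 17, 58269856 to 58280935), was at 0.25 and 0.07 TPM against 384 and 456 TPM, a log2 difference of -8.5 (SE 0.12, adjusted p = 2.5e-06, limma). FLT3 (chromosome 13, 28003274 to 28100592) was at 0.42 and 0.23 TPM against 238 and 229 TPM, 718-fold lower in NOMO-1 by group means. YBX3, a cold shock RNA-binding protein, was at 0.07 and 0 TPM against 193 and 194 TPM. APP, the amyloid precursor, and CD81, a tetraspanin, were listed at 0 in both NOMO-1 libraries and were at 112 and 111 TPM and at 75.9 and 81.5 TPM, in that order, in MOLM-13. The apolipoprotein gene APOC2 was at 0.79 and 0.12 TPM against 205 and 207 TPM, and PRSS57, a serine protease of azurophil granules, at 0.78 and 1.07 TPM against 232 and 266 TPM. Apart from CD81, these genes were also picked by the rule that asked for no overlap between the lines.

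Granule genes divided the lines in both directions. Of 24 granule and granulocyte genes past the filter, 7 were called higher in NOMO-1 and 11 in MOLM-13 (45.8% of the list against the 11.6% background), with a median log2 difference of -0.51. CAMP, MMP8, CEACAM6 and DEFA1 passed the filter through NOMO-1 alone, and MPO and EPX through MOLM-13 alone. Beside MPO, the azurophil proteins AZU1 (259 and 268 against 1054 and 1218 TPM) and PRTN3 (220 and 265 against 556 and 608 TPM) were higher in MOLM-13. ELANE, the neutrophil elastase, was not called, at 667 and 705 TPM in NOMO-1 and 697 and 783 TPM in MOLM-13. CTSG, cathepsin G of the same granules, went the other way at 1765 and 1789 TPM in NOMO-1 against 516 and 529 TPM in MOLM-13. Elastase, proteinase 3, azurocidin and cathepsin G were thus present in both lines, while MPO and PRSS57 were at or near 0 in NOMO-1. CST7, an inhibitor of lysosomal cathepsins, was 24.5-fold higher in NOMO-1, at 1041 and 1048 TPM against 44 and 41.2 TPM. The later granule genes CAMP (10.3 and 11 TPM) and MMP8 (7.31 and 7.98 TPM) were found in NOMO-1 and lay at 0.12 TPM or less in MOLM-13. Other later granule genes did not share this. LTF was at 0.24 and 0.31 TPM in NOMO-1, and LCN2 was listed at 0 in every control library. MMP9 was not called, at 1.84 and 1.29 TPM in NOMO-1 against 1.84 and 1.91 TPM in MOLM-13.

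Monocyte and macrophage markers leaned to MOLM-13. Of 31 such genes past the filter, 16 were higher in MOLM-13 (51.6%) and 9 in NOMO-1 (29%), with a median log2 difference of -1.06. LYZ, lysozyme, was at 463 and 500 TPM in NOMO-1 and 9126 and 8493 TPM in MOLM-13, a log2 difference of -4.19 (SE 0.06, adjusted p = 2.5e-06, limma). S100A8, a calgranulin chain, was at 51.5 and 64.3 TPM against 1128 and 1118 TPM. MPEG1, a pore former of macrophages, was at 0.08 and 0.02 TPM against 40.5 and 39.2 TPM, and TYROBP, the adaptor of many activating receptors, at 11.2 and 11.4 TPM against 175 and 176 TPM. CSF1R, the receptor for the macrophage growth factor, was 10.7-fold higher in MOLM-13. CD14, the lipopolysaccharide coreceptor, was low in both lines, at 0.3 and 0.44 TPM against 3.28 and 3.31 TPM. In the opposite direction, TREM1, an activating receptor of monocytes, was at 99.5 and 105 TPM in NOMO-1 against 1.52 and 1.08 TPM, and FCER1G, a signalling chain of Fc receptors, at 439 and 441 TPM against 39.1 and 38.2 TPM. CD4 and CD68, both present on monocytes and macrophages, were also higher in NOMO-1, CD4 at 175 and 175 TPM against 43 and 46.6 TPM. Each line thus held monocyte genes that were low in the other.

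**Figure D2:**
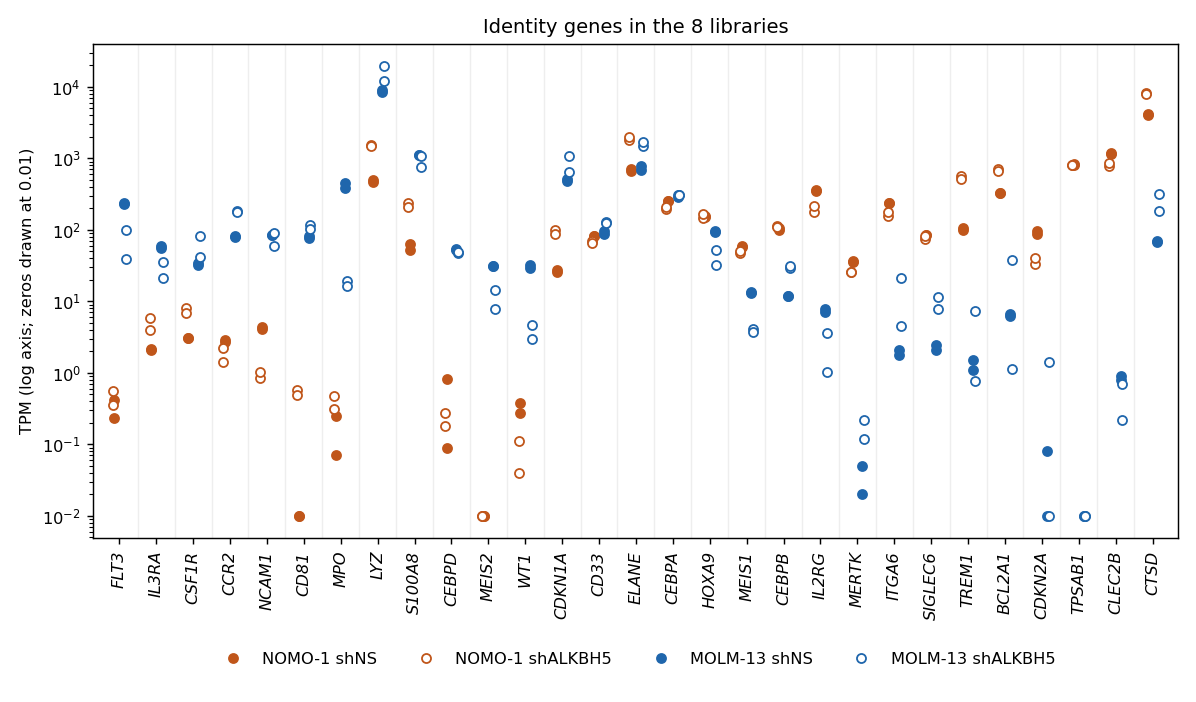
TPM of identity genes in the 8 libraries, on a log axis with zeros drawn at 0.01. Filled points are shNS libraries and open points shALKBH5 libraries, orange for NOMO-1 and blue for MOLM-13. FLT3, CD81, MPO and MEIS2 are high in blue only, TPSAB1, CLEC2B and CTSD in orange, while CD33, ELANE and CEBPA have both lines together in the shNS libraries.

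Of 20 blast and leukaemic stem cell antigens past the filter, 6 were higher in NOMO-1, 3 in MOLM-13 and 11 were not called. CD34 did not reach the filter, at 0.04 and 0.09 TPM in NOMO-1 and 0.34 and 0.46 TPM in MOLM-13, and KIT, the stem cell factor receptor, did not exceed 1.54 TPM. CD33, the myeloid antigen targeted in therapy, was at 82.5 and 82.5 TPM against 87.3 and 96.4 TPM and was not called. CLEC12A, at 87.6 and 86.8 TPM against 55.5 and 51.7 TPM, and CD44, at 75.3 and 75.8 TPM against 106 and 107 TPM, were not called either. IL3RA (CD123), the alpha chain of the interleukin 3 receptor, was at 2.07 and 2.15 TPM in NOMO-1 against 55.4 and 59.8 TPM in MOLM-13, a log2 difference of -4.24 (SE 0.06, adjusted p = 2.6e-06, limma). CD36, a scavenger receptor, was 8.29-fold higher in NOMO-1, and CD93, a receptor of early myeloid cells, 5.57-fold higher.

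Cytokine receptors and receptor kinases differed in both directions. Of 36 past the filter, 9 were higher in NOMO-1 and 12 in MOLM-13, and 15 were not called. FLT3, IL3RA, CSF1R and IL7R, the interleukin 7 receptor (1.22 and 1.35 against 25.2 and 25.4 TPM), were higher in MOLM-13. IL2RG, the shared chain of several interleukin receptors, was at 344 and 356 TPM in NOMO-1 against 7 and 7.72 TPM. The TAM receptors, which bind GAS6 and clear dying cells, split as well. MERTK was at 35.3 and 37.1 TPM against 0.02 and 0.05 TPM and TYRO3 at 49.2 and 48.2 TPM against 1.7 and 2.25 TPM, both higher in NOMO-1, while AXL was at 0 and 0.02 TPM against 4.39 and 3.95 TPM. Their ligand GAS6 went with MOLM-13, at 0.71 and 0.81 TPM in NOMO-1 and 172 and 181 TPM in MOLM-13. IL6R, at 119 and 122 TPM against 113 and 118 TPM, was close to equal and not called.

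Downstream of these receptors, 5 of 24 genes of the JAK-STAT5 list were higher in each line. SOCS2, a STAT5 target that restrains cytokine signalling, was at 2.99 and 3.85 TPM in NOMO-1 against 102 and 101 TPM in MOLM-13. CCND2 was 2.61-fold higher in MOLM-13 and CCND3 6.16-fold higher in NOMO-1, at 1206 and 1176 TPM against 183 and 204 TPM. Both are D-type cyclins. BCL2L1 (BCL-XL) and STAT5A were higher in NOMO-1, at 55.1 and 54.3 against 12.1 and 13.7 TPM and at 33.6 and 31.5 against 10.1 and 9.96 TPM. PIM1 and CISH, other STAT5 targets, were not called, PIM1 at 85.5 and 84.8 TPM against 41.3 and 44 TPM. MYC was not called, at 267 and 258 TPM against 375 and 397 TPM.

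RAS pathway and ERK feedback genes did not lean to 1 line. Of 36 members, 7 were higher in NOMO-1 and 4 in MOLM-13, near the background, and under median-of-ratios scaling the counts turned to 3 and 7. ETV5, a transcription factor induced by ERK, was higher in NOMO-1 at 85.7 and 82.2 TPM against 22.3 and 22.9 TPM. ETV4 was at 16.5 and 16.3 TPM against 6.17 and 6.72 TPM, a call lost under median-of-ratios scaling (log2 difference 0.94). The feedback inhibitors SPRY1 and SPRY2 went in opposite directions, SPRY1 at 5.16 and 5.05 TPM against 0.52 and 0.23 TPM and SPRY2 at 16.5 and 16.2 TPM against 43.9 and 41.9 TPM. SPRED1, which recruits the RAS inhibitor NF1, was at 0.03 and 0 TPM in NOMO-1 and 5.02 and 4.85 TPM in MOLM-13. DUSP6, the ERK phosphatase, was not called, at 55.5 and 56.7 TPM against 107 and 101 TPM.

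Of the core myeloid transcription factors, SPI1 (PU.1), CEBPA and MYB were not called, CEBPA at 253 and 254 TPM against 291 and 302 TPM and MYB at 275 and 279 TPM against 305 and 294 TPM. Of 36 factors past the filter, 7 were higher in NOMO-1 and 8 in MOLM-13. The C/EBP family divided by member. CEBPB was at 106 and 100 TPM against 12 and 11.8 TPM and CEBPE at 28.2 and 27.6 TPM against 1.7 and 1.52 TPM, both higher in NOMO-1. CEBPD was at 0.09 and 0.82 TPM in NOMO-1 against 51.9 and 53.2 TPM in MOLM-13. IRF8, a monocyte factor, was 3.55-fold higher in MOLM-13, RUNX1 4.08-fold and MEF2C 15.9-fold. GFI1, a repressor active in granulocyte progenitors, was 3.08-fold higher in NOMO-1.

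The main targets of KMT2A fusions were present in both lines. HOXA9 was at 150 and 157 TPM in NOMO-1 against 96.9 and 94.7 TPM in MOLM-13 and was not called. Its neighbour HOXA10 was higher in NOMO-1, at 177 and 181 TPM against 46.1 and 46.6 TPM (log2 difference 1.93, SE 0.03, adjusted p = 2.7e-06, limma). The cofactors MEIS1, MEIS2 and PBX3 help HOX proteins bind DNA. MEIS1 was at 57.8 and 58.6 TPM against 13.6 and 13.3 TPM, higher in NOMO-1. MEIS2 was listed at 0 in both NOMO-1 libraries and stood at 30.9 and 31.2 TPM in MOLM-13, and PBX3 was 2.45-fold higher in MOLM-13. In all, 6 of 17 HOXA, MEIS and PBX genes were higher in NOMO-1 and 2 in MOLM-13. Outside HOXA, 4 of 28 HOX genes passed the filter, all of the HOXC cluster: HOXC6, HOXC8 and HOXC10 were higher in NOMO-1 and HOXC4 in MOLM-13. At a pseudocount of 5 the calls of HOXC6, HOXC8 and HOXC4 were lost (log2 differences 0.94, 0.45 and -0.80). HOXC4 had the opposite order with shALKBH5, at 5.8 and 6.35 TPM in NOMO-1 against 1.92 and 1.43 TPM in MOLM-13.

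Among KMT2A complex and fusion partner genes, KMT2A (28.2 and 27.3 against 15.1 and 15 TPM), MLLT3 (3.28 and 3.17 against 4.5 and 4.06 TPM) and DOT1L were not called. Of 21 past the filter, 2 were higher in NOMO-1, PSIP1 and BMI1, and both calls were lost under median-of-ratios scaling. In MOLM-13, 6 were higher, among them AFF3 (0.52 and 0.7 against 26 and 26.3 TPM) and ZNF521, a progenitor zinc finger factor (0.07 and 0.02 against 32.2 and 33 TPM). Of 31 epigenetic and splicing regulators mutated in acute myeloid leukaemia, 8 were higher in NOMO-1 and 2 in MOLM-13, and 4 and 2 under median-of-ratios scaling. WT1, a zinc finger factor used to track residual disease, was at 0.27 and 0.38 TPM in NOMO-1 against 29.5 and 32.4 TPM in MOLM-13. TET2, a methylcytosine dioxygenase, was 2.68-fold higher in MOLM-13, and DNMT3A, a DNA methyltransferase, 2.68-fold higher in NOMO-1.

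Cell cycle inhibitors differed in both directions. CDKN1A (p21), a cell cycle inhibitor, was at 25.5 and 27.8 TPM against 483 and 507 TPM. MDM2, a ubiquitin ligase, was at 19.4 and 17.7 TPM against 130 and 119 TPM. GDF15, a secreted stress cytokine, went the other way at 5.44 and 7.33 TPM in NOMO-1 against 0.69 and 0.51 TPM. Neighbouring genes on chromosome 9 that code for cell cycle inhibitors were found in NOMO-1. CDKN2A (21967753 to 21995301), the gene of p16 and p14ARF, was at 87.6 and 96.8 TPM there and at 0.08 and 0 TPM in MOLM-13. CDKN2B was at 2.28 and 2.6 TPM and listed at 0 in both MOLM-13 libraries, and MTAP, next to them, was also called higher in NOMO-1.

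Of 16 BCL2 family genes past the filter, 3 were called higher in NOMO-1 and 2 in MOLM-13, shares near the background. BCL2A1 was at 324 and 327 TPM in NOMO-1 against 6.21 and 6.73 TPM in MOLM-13, a 50.3-fold ratio. BCL2, the target of venetoclax, was higher in MOLM-13, at 35.9 and 36.1 TPM against 13.5 and 12.5 TPM. MCL1, an antiapoptotic member, was not called, at 179 and 180 TPM in NOMO-1 and 284 and 254 TPM in MOLM-13. BIK, a proapoptotic member, was at 3.15 and 1.21 TPM in NOMO-1 against 40.1 and 48.4 TPM.

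Adhesion molecules set the lines apart in both directions. Of 28 integrins and adhesion genes past the filter, 12 were higher in NOMO-1 and 7 in MOLM-13, but 7 and 8 under median-of-ratios scaling. ITGA6 and ITGA5, the fibronectin receptor chain (255 and 254 against 48 and 52 TPM), were higher in NOMO-1. ITGAL, the alpha chain of LFA-1, was at 17 and 16.7 TPM against 140 and 141 TPM, higher in MOLM-13, and ITGB2, its beta chain, was not called at 437 and 448 TPM against 298 and 309 TPM. NCAM1 (CD56), an antigen seen on some monocytic leukaemias, was at 4.1 and 4.35 TPM in NOMO-1 against 84.9 and 83.4 TPM in MOLM-13. Tetraspanins divided too. CD81, listed at 0 in NOMO-1, and CD53 were higher in MOLM-13, while CD9, CD63 and CD82 were among those higher in NOMO-1.

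Of 36 Fc receptor, Siglec and LILR genes past the filter, 15 were higher in NOMO-1 (41.7%) and 2 in MOLM-13, and 12 and 3 under median-of-ratios scaling. The 15 held 7 genes of the Siglec family, receptors that bind sialic acid and mostly inhibit the cell. SIGLEC12 was at 49.9 and 48.3 TPM against 0.16 and 0.04 TPM, SIGLEC6 at 83.9 and 83.8 TPM against 2.43 and 2.06 TPM and SIGLEC5 at 23.6 and 21.7 TPM against 0.04 and 0 TPM. SIGLEC7, SIGLEC10, SIGLEC14 and CD22 were the other four, CD22, a B cell Siglec, at 10 and 10.2 TPM against 0.09 and 0.14 TPM. SIGLEC5 and SIGLEC14 share near-identical stretches, so their split is uncertain. FCAR, the receptor for immunoglobulin A, was at 63.7 and 61.9 TPM against 0.58 and 0.79 TPM. FCGR1A, the high affinity receptor for immunoglobulin G, and LILRA1 were higher in MOLM-13, FCGR1A 2.2-fold.

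Part of a cluster of lectin genes on chromosome 12 went with the same line. The cluster was listed after its first members had been seen among the genes highest in NOMO-1, so its count only describes it. Of 12 members past the filter, 8 were higher in NOMO-1 and 1 in MOLM-13. The other listed members did not reach the filter, many of them at or near 0 in both lines. CLEC2A, CLEC2B, CLECL1, CD69, KLRF1 and KLRF2 were under 1 TPM in both MOLM-13 libraries and passed the filter through NOMO-1 alone. Besides CLEC2B, these included CLEC2A (55.9 and 53.5 TPM, listed at 0 in both MOLM-13 libraries), CLECL1 (139 and 135 against 0.81 and 0.83 TPM) and CD69, an early activation antigen (76.2 and 80.2 against 0.05 and 0.05 TPM). CLEC7A, the beta glucan receptor of the same cluster, went the other way, at 0.56 and 0.86 TPM in NOMO-1 and 8.06 and 6.26 TPM in MOLM-13. It passed the filter through MOLM-13 alone.

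Of 27 genes of innate sensing, Toll-like receptors and their signalling partners among them, 12 were higher in MOLM-13 (44.4%) and 6 in NOMO-1. TLR1, TLR6, TLR8 and CD14 passed the filter through MOLM-13 alone, and AIM2 through NOMO-1 alone. TLR2 and its partners TLR1 and TLR6, which sense lipoproteins, were all higher in MOLM-13, TLR2 at 6.07 and 5.52 TPM in NOMO-1 against 32.5 and 31.4 TPM. TLR8, which senses single-stranded RNA, was at 0.03 and 0 TPM against 9.86 and 9.25 TPM. TLR4, the lipopolysaccharide receptor, was the reverse at 50.9 and 48 TPM in NOMO-1 against 5.9 and 5.31 TPM. The adaptor MYD88 was not called, at 70.7 and 68.5 TPM against 38.4 and 41.5 TPM.

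Of 24 chemokine system genes past the filter, 9 were higher in NOMO-1 and 8 in MOLM-13. CCR2, the monocyte homing receptor, was at 2.68 and 2.84 TPM in NOMO-1 against 80.1 and 81.1 TPM in MOLM-13, while its ligand CCL2 was at 45.9 and 47.7 TPM in NOMO-1 against 0.38 and 0 TPM. CX3CR1, the fractalkine receptor, was 5.26-fold higher in MOLM-13. C5AR1 and FPR2, receptors for complement C5a and formyl peptides, were higher in NOMO-1, C5AR1 at 19.1 and 20 TPM against 0.77 and 0.48 TPM. Of 30 cytokine and TNF family genes, 6 were higher in NOMO-1 and 11 in MOLM-13, among the latter the death receptors FAS (2.93 and 3.49 against 15.3 and 14.8 TPM) and TNFRSF10A. Interferon-stimulated genes went both ways, with 9 of 35 higher in NOMO-1 and 10 in MOLM-13. MX2 was at 87.1 and 83.8 TPM against 4.65 and 4.33 TPM and IFI30, a lysosomal thiol reductase, at 1221 and 1233 TPM against 41.8 and 42.8 TPM. IFITM1 and IFITM3, membrane restriction factors, were below 1 TPM in NOMO-1 and at 17 to 27 TPM in MOLM-13. Of 23 NF-kB genes, 6 were higher in NOMO-1 and 1 in MOLM-13, but 2 and 2 under median-of-ratios scaling.

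Of 13 MHC class I and peptide loading genes, 5 were higher in NOMO-1 and 3 in MOLM-13. B2M, the light chain of MHC class I, was at 4095 and 4171 TPM in NOMO-1 against 1239 and 1256 TPM in MOLM-13, and HLA-C was 2.92-fold higher in NOMO-1. CIITA, the master activator of class II, was at 6.37 and 6.76 TPM against 1.11 and 1.15 TPM. CD74, the invariant chain, was the reverse, at 90.2 and 96.1 TPM in NOMO-1 against 187 and 192 TPM in MOLM-13. That call was lost when either NOMO-1 replicate 1 or MOLM-13 replicate 3 was left out (log2 difference -0.97 and -1). HLA genes vary between people and share reads, so their levels are uncertain.

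A list of WNT, RET and neural-type signalling genes, put together after some had been seen among the genes highest in MOLM-13, had 15 of 27 members higher there and 7 in NOMO-1. RET, a receptor kinase of neural crest cells, was at 0.08 and 0.02 TPM in NOMO-1 against 104 and 109 TPM in MOLM-13. LGR4, an R-spondin receptor, was at 0.09 and 0.04 TPM against 82.3 and 82.7 TPM, and ZIC2, a neural transcription factor, at 0.08 and 0 TPM against 46.2 and 46.3 TPM. CTNNB1, beta-catenin itself, was higher in NOMO-1, at 206 and 212 TPM against 75.2 and 75.8 TPM. The oncofetal RNA-binding proteins of the IGF2BP family, which read N6-methyladenosine, divided: IGF2BP1 was at 0 and 0.01 TPM against 28.6 and 29.9 TPM and IGF2BP2 at 30.4 and 34.1 TPM against 80.4 and 78.1 TPM. IGF2BP3, at 32.4 and 30.7 TPM against 15.1 and 14.8 TPM, was higher in NOMO-1, a call lost under median-of-ratios scaling and without NOMO-1 replicate 1 (log2 difference 0.73 and 0.99). The other 18 genes of the N6-methyladenosine list, ALKBH5 included at 70.4 and 71.8 TPM against 45.7 and 45.8 TPM, were not called. Of 40 cancer-testis and embryonal genes, 8 passed the filter, and PAGE1 was at 54.8 and 67.3 TPM in NOMO-1 and listed at 0 in both MOLM-13 libraries.

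Most proliferation genes were higher in NOMO-1. Of 37 mitosis and replication genes, 30 were higher in NOMO-1 (81.1% against the 22.7% background) and none in MOLM-13, with a median log2 difference of 1.5. Under median-of-ratios scaling 21 were called on that side and 1 on the other. RRM2, a ribonucleotide reductase chain, was at 559 and 578 TPM against 78.8 and 77 TPM, TPX2, a spindle assembly factor, at 550 and 572 TPM against 82.4 and 82.2 TPM and PCNA, the replication clamp, at 1221 and 1231 TPM against 278 and 285 TPM. MKI67, the antigen used to count cycling cells, was at 323 and 322 TPM against 115 and 116 TPM. BUB3 was not called and lay lower in NOMO-1, at 202 and 208 TPM against 332 and 345 TPM.

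The lysosomal list, put together after CTSD and GPNMB had been seen among the highest genes, had 32 of 52 members higher in NOMO-1 and 4 in MOLM-13. CTSD, the aspartic protease cathepsin D, was at 4028 and 4117 TPM in NOMO-1 against 67.9 and 69.7 TPM in MOLM-13, a 59.2-fold ratio. TFEB, the transcription factor that drives lysosomal genes, was at 168 and 185 TPM against 11.1 and 13.7 TPM. NPC1 and NPC2, which export cholesterol from lysosomes, were both higher in NOMO-1, NPC1 at 313 and 307 TPM against 12.4 and 11.6 TPM. Of 45 metabolic and drug-handling enzymes, 24 were higher in NOMO-1 (53.3%) and 8 in MOLM-13. GSTP1, a glutathione transferase, was at 2166 and 2155 TPM against 113 and 134 TPM. Genes that act on cytarabine were among them. DCK, the kinase that activates the drug, was at 92.6 and 93.1 TPM in NOMO-1 against 39.5 and 42.7 TPM. Its call was lost under median-of-ratios scaling. SLC29A1, a nucleoside carrier that takes the drug up, was 3.42-fold higher in NOMO-1. The related carrier SLC29A2 went the other way, at 1.05 and 0.84 TPM in NOMO-1 against 14.2 and 13.7 TPM in MOLM-13. CDA, which inactivates the drug, was at 32.5 and 34.7 TPM in NOMO-1 against 2.61 and 2.78 TPM, while SAMHD1, which hydrolyses its active form, was at 9.68 and 9.96 TPM in NOMO-1 against 258 and 256 TPM in MOLM-13. HK1, hexokinase 1, was 21.2-fold higher in NOMO-1 and ALDH2, the mitochondrial aldehyde dehydrogenase, 48.4-fold higher in MOLM-13.

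Translation genes leaned to MOLM-13. Their lists were also set up after their levels had been seen. None of 77 ribosomal protein genes was higher in NOMO-1, and 35 were higher in MOLM-13 (45.5%), with a median log2 difference of -0.94. That count was 58 under median-of-ratios scaling and 13 under quantile normalization. RPL13A was at 1233 and 1251 TPM against 4131 and 4194 TPM, and RPS4X was not called at 3197 and 3358 TPM against 3231 and 3297 TPM. EEF1A1, the elongation factor that brings transfer RNA to the ribosome, was at 4159 and 4419 TPM in NOMO-1 against 21947 and 22509 TPM in MOLM-13. Of 18 elongation and initiation genes, 12 were higher in MOLM-13 and none in NOMO-1. Many of these genes have processed pseudogenes that share their reads, so single values are uncertain.

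**Figure D3:**
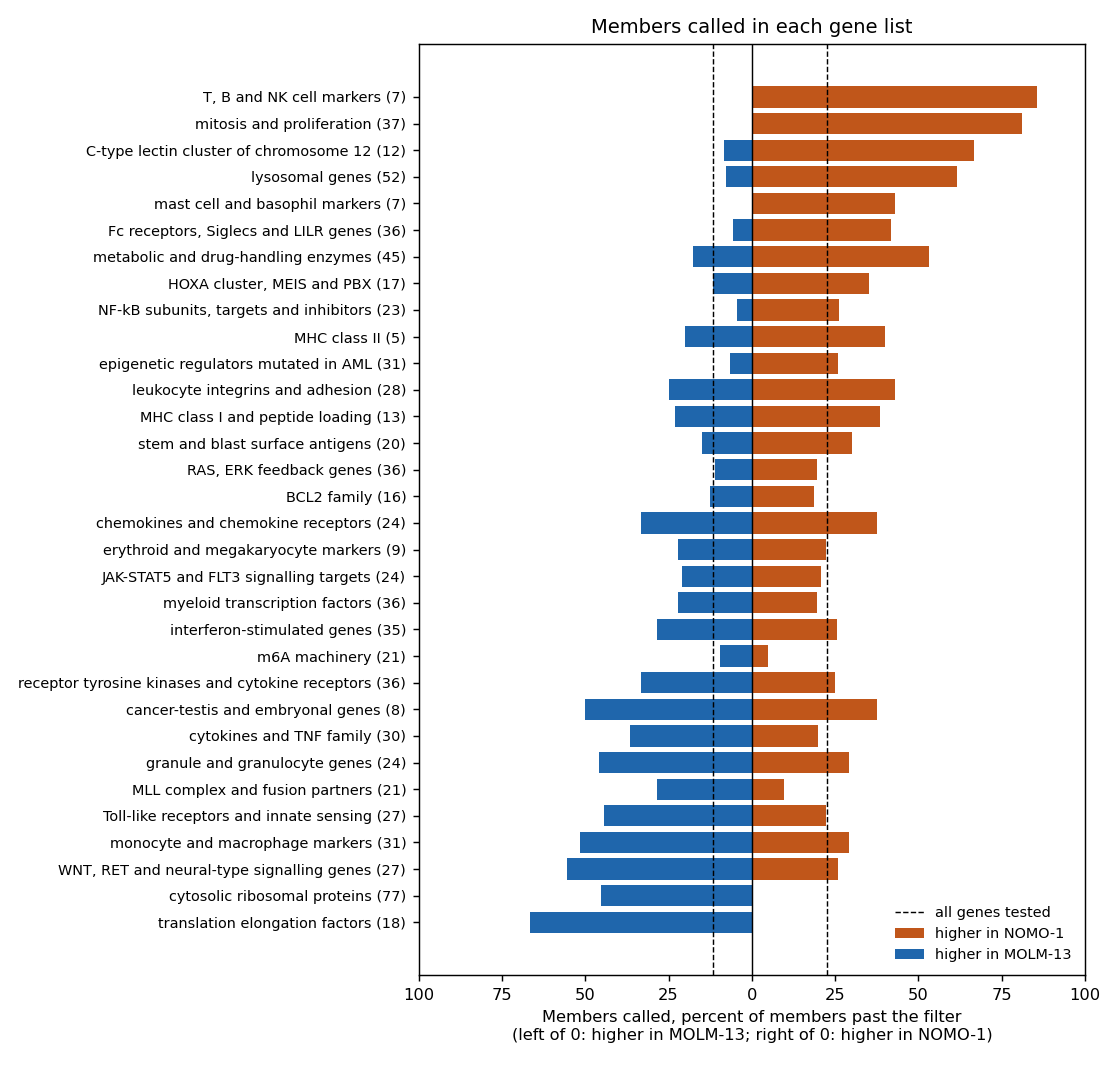
Share of each gene list called higher in NOMO-1 (orange, right of 0) and higher in MOLM-13 (blue, left of 0), as a percentage of its members past the filter, with that number in brackets; lists with fewer than 5 such members, and 1 list not reported here, are left out. Dashed lines mark the share over all genes tested, 22.7% and 11.6%. Mitosis and lysosomal genes reach furthest right among the lists of over 30 members, and ribosomal protein and monocyte genes furthest left.

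The line difference also varied by chromosome. Over 8353 genes on chromosomes 1 to 22 and X whose mean reached 10 TPM, chromosome medians ranged from 0.53 below to 0.79 above the median of all such genes (0.33 on the log2 scale). Chromosome X was highest with 274 genes, of which 153 were called higher in NOMO-1 and 10 in MOLM-13, and chromosomes 20 and 15 followed at 0.51 and 0.48 above. Chromosome 12 was lowest, at -0.53 with 462 genes, then chromosome 10 at -0.43 and chromosome 5 at -0.28. Among windows of 10 Mb with at least 20 genes, 2 lay beyond 0.9 from that median. They were chromosome X from 150 to 160 Mb (1.08 above, 43 genes) and chromosome 5 from 30 to 40 Mb (-0.93, 20 genes). Copy number was not analysed here, and the medians are a description.

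**Figure D4:**
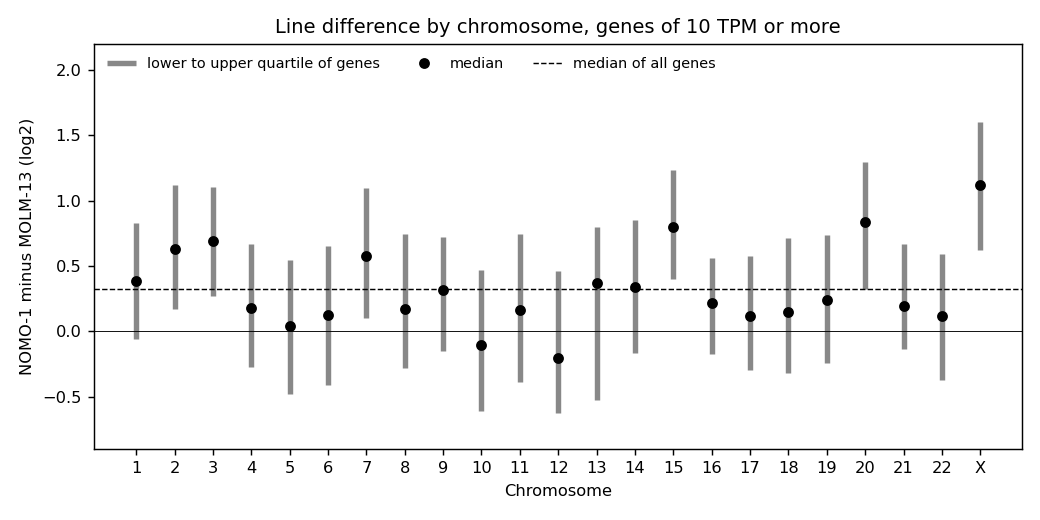
Log2 difference, NOMO-1 minus MOLM-13, by chromosome for genes with a mean of 10 TPM or more. Points are medians, grey bars run from the lower to the upper quartile of genes, and the dashed line is the median of all such genes. Chromosome X lies highest and chromosome 12 lowest.

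The ALKBH5 hairpin libraries share no sample with the controls and give the line difference a second time, under another treatment. ALKBH5 itself was at 15.1 and 14.2 TPM in NOMO-1 and 9.45 and 7.35 TPM in MOLM-13 with that hairpin, below the 70.4 and 71.8 TPM and the 45.7 and 45.8 TPM with shNS. Of the 3036 genes higher in NOMO-1, 2930 (96.5%) had both NOMO-1 shALKBH5 libraries above both MOLM-13 shALKBH5 libraries, against 65.8% of all genes tested, and 15 had the opposite order. Of the 1553 genes higher in MOLM-13, 1319 (84.9%) kept their order, against 19% of all genes tested, and 51 were reversed. Among genes at least 10-fold apart on the log2 scale, 260 of 263 and 240 of 245 kept it. TPSAB1 was at 816 and 795 TPM with shALKBH5 in NOMO-1 and again listed at 0 in MOLM-13, and CTSD, CLEC2B and CD81 kept their order as well. FLT3 kept its order with a smaller log2 difference, -5.45 with shALKBH5 against -7.47 with shNS. MPO in MOLM-13 was at 19.3 and 16.4 TPM with shALKBH5 against 384 and 456 TPM with shNS, still above the 0.31 and 0.48 TPM of NOMO-1. PBX3 and CD109, an antigen of early blood cells, turned: CD109 was at 3.09 and 2.87 TPM against 16.7 and 15.9 TPM in the controls but 14.3 and 11.2 TPM against 7.91 and 6.9 TPM with shALKBH5. SERPINB2, an inhibitor of plasminogen activators chosen here for its reversal, was at 25.9 and 30.6 TPM in NOMO-1 against 0.83 and 0.76 TPM with shNS, and at 5.88 and 6.54 TPM against 16 and 40.1 TPM with shALKBH5. The 2 MOLM-13 shALKBH5 libraries lay far apart from each other, with an SD of 0.6 for their log2 difference, so single genes there are less certain.

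**Figure D5:**
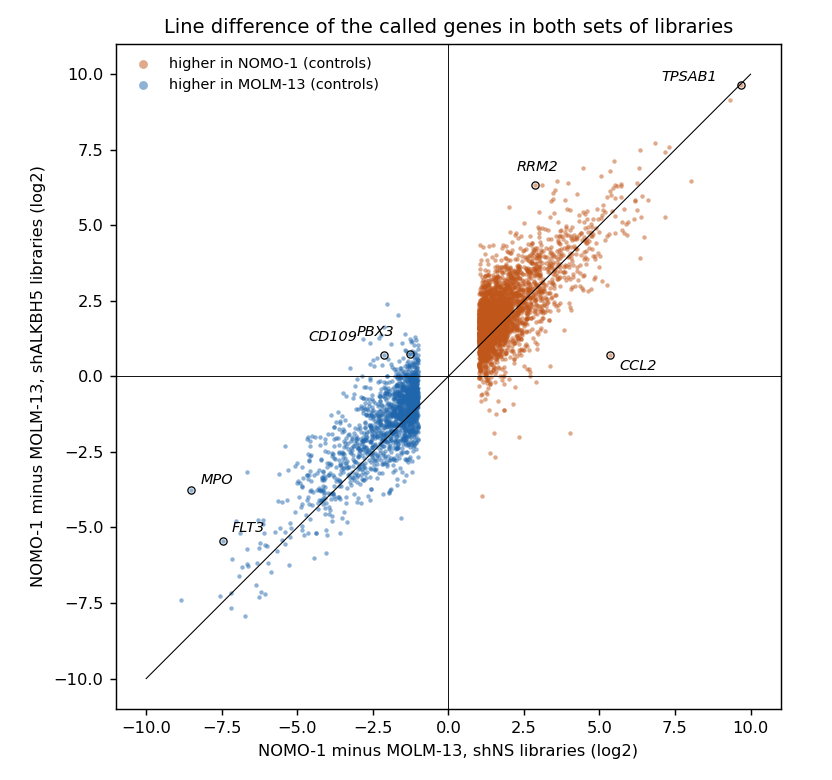
Log2 difference, NOMO-1 minus MOLM-13, of each called gene in the shNS libraries (x axis) and in the shALKBH5 libraries (y axis). The line marks equal differences. TPSAB1, MPO and FLT3 keep their side, CCL2 falls towards 0, RRM2 rises, and PBX3 and CD109 cross to the other side of 0.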

How the data were processed

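The authors deposited 1 table of TPM values, a gene's length-corrected share of each library; per the submitters' processing notes it comes from STAR, RSEM and GRCh38, with versions not given in the sources used here. The labels' protocols describe polyadenylated RNA and stranded libraries. TPM keeps no depth, so no count test was possible and no counting error can be given.

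From the deposited TPM values, genes of at least 1 TPM in 2 of the 4 control libraries were tested on log2(TPM + 1) with limma 3.58.1 in R 4.3.3, with an intensity trend, two-sided and with Benjamini-Hochberg adjustment over all 13366 genes; differences on that scale understate those of low genes. With 2 libraries a group, residual degrees of freedom were 2 and prior ones 2.63. The code was checked on simulated data. Fold values are ratios of mean TPM. Symbols were placed by GENCODE release 29, and promoters came from RefSeq (GRCh38.p14). Tables and figures used Python 3.11.15.

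The gene lists and all members were chosen with earlier results of these data known, and 5 lists (ribosomal proteins, elongation factors, lysosomal genes, the lectin cluster, WNT and RET genes) after their values were seen. Genes were named by rule. It took the 15 largest called differences in each direction with a mean of 10 TPM or more. These also had to have no overlap between the libraries of the lines. Added were up to 4 called members per list and direction and 3 abundant members per list that were not called. A fixed set of leukaemia genes completed the rule. Outside that rule, AZU1, PRTN3, TYROBP, CD4, CD68, AXL, MDM2, MTAP, ITGAL, CD63, SIGLEC7, SIGLEC10, SIGLEC14, CD22, LGR4, ZIC2, CTNNB1, PCNA, MKI67, TFEB, NPC2, RPS4X, DCK, SLC29A1, SLC29A2, CPA3, HDC, LTF, LCN2, MMP9 and SERPINB2 were chosen after their values were seen. KLRF1, KLRF2, MS4A1, CEACAM6, DEFA1 and EPX were also named outside that rule after their values were seen. Lists were described by counts, with no set test. Alternatives covered the pseudocount, the filter, the scaling, the model, a replicate block and each library left out. The rescaling without ribosomal protein genes, ribosomal RNA and MIR6723 was chosen after seeing the data. Some items are not reported here.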

Additional observations from a re-analysis of the deposited data

Results flagged for a closer look

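The line difference of some genes was itself different between the hairpins. These are the genes of the text for which limma, fitted on all 8 libraries, gave an adjusted p under 0.05 and at least 2-fold for the line difference with shNS minus that with shALKBH5. Over all genes tested, 2478 (18.5%) passed. The 2 MOLM-13 shALKBH5 libraries lay far apart (SD of their log2 difference 0.60), and the part of that spread in these values was not tested.

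Values are the log2 line difference, NOMO-1 minus MOLM-13, with shNS minus the same with shALKBH5. Above 0 were SERPINB2 5.90, CCL2 4.65, ETV5 2.10, FPR2 1.94, GTSF1 1.90, CDKN2A 1.88, CIITA 1.81, SIGLEC6 1.81, MYC 1.74 and CCR2 1.56. Also above 0 were IGF2BP2 1.39, NCAM1 1.22, ETV4 1.20, CEBPB 1.17, CCND2 1.16, SIGLEC14 1.15, HK1 1.15, SPRY1 1.06 and CD82 1.02. Below 0 were MPO -4.75, RRM2 -3.47, MKI67 -2.86, HOXC4 -2.86, CD109 -2.82, CAMP -2.61, CTSG -2.48, WT1 -2.46, FCER1G -2.41 and S100A8 -2.25. Also below 0 were PRSS57 -2.22, PIM1 -2.21, MEF2C -2.19, ZNF521 -2.15, FLT3 -2.02, AFF3 -2.01, PBX3 -1.98, IL3RA -1.96, SOCS2 -1.93 and BMI1 -1.90. Also below 0 were MMP8 -1.83, HOXA10 -1.63, LGR4 -1.53, CDKN2B -1.51, MEIS2 -1.47, PDLIM1 -1.45, HOXC6 -1.37, SPRED1 -1.33, TPX2 -1.32 and MEIS1 -1.30. The remaining ones below 0 were HOXA9 -1.24, CCND3 -1.23, CD9 -1.16, BCL2L1 -1.15, KIT -1.13, CISH -1.04, CDA -1.03 and PSIP1 -1.03.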

How the results depend on the processing

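Over 16 alternatives no named gene turned its direction as a call. Of 224 called named genes, 174 kept the call in every alternative and 50 lost it in at least 1. A pseudocount of 5 in place of 1 lowered the calls from 4589 to 2741 (1869 higher in NOMO-1 and 872 higher in MOLM-13), of which 2737 kept gene and direction. That setting shrinks the differences of low genes by construction, and HOXC4, HOXC6, HOXC8, SPRY1, SPRED1, ETV4, FCGR1A, CIITA, CD74, TPSB2, CDKN2B, TET2, IGF2BP3 and CD14 were among the calls it lost. Leaving out 1 library at a time gave 4509 to 4591 calls, and 4135 genes kept their call in all 4 such fits; the lone library of a line is then assumed to vary like the other line. The count of called genes with the same order in the shALKBH5 libraries was 4249, and 4284 to 4397 when 1 shALKBH5 library was left out; with fewer libraries groups overlap less by construction, so that range says nothing about stability. Median-of-ratios scaling and quantile normalization gave 51.4% and 51.5% of calls to NOMO-1 against 66.2% as deposited. Rescaling over protein-coding genes gave 70.5%, and rescaling without ribosomal protein genes, ribosomal RNA and MIR6723 gave 57.1%. The replicate number pairs no samples by the labels. With it as a replicate block 4604 genes were called, and the correlation of same-numbered deviations between the lines was 0.03 over 2 pairs. Depth is unknown, so the precision of low TPM values cannot be given.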
